A study of Homo sapiens with 6 samples.

Results

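The genes described here control the phosphorylation of eIF2α, the regulated subunit of the factor that brings the initiator tRNA to the ribosome. The set was a fixed list of 8 symbols, chosen by function and not by their values, though earlier results of these data were known. It holds the 4 eIF2α kinases, the GCN2 coactivator GCN1, the GCN2 inhibitor IMPACT, and the subunits PPP1R15A and PPP1R15B that direct protein phosphatase 1 to eIF2α. Of these, 7 were analysed among 17202 genes in all, and IMPACT was not analysed here. They were measured by RNA-seq of total RNA in DND41 cells, an established human line grown from an acute T-cell leukaemia (T-ALL). The MB1-47 group was 3 libraries of cells given MB1-47, a mitochondrial uncoupling drug per the series title, for 24 h. The DMSO group was 3 libraries of cells given the solvent for the same time. Both were kept in RPMI with serum, and the labels give the MB1-47 dose as 4 mM, a unit repeated here as written. Cells were plated in triplicates per the labels, with no more said of how separate the cultures were, so the p-values speak only to variation among the libraries, part or all of which could be technical.

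A phosphate on eIF2α blocks the recycling of eIF2 by its exchange factor eIF2B, so most translation slows while a few mRNAs such as that of ATF4 are translated more; this is the integrated stress response. Each kinase senses a different stress. HRI (EIF2AK1) responds to low haem and to mitochondrial stress relayed by OMA1 and DELE1, PKR (EIF2AK2) to double-stranded RNA, PERK (EIF2AK3) to unfolded proteins in the endoplasmic reticulum, and GCN2 (EIF2AK4) to uncharged tRNA and stalled ribosomes with the help of GCN1. PPP1R15A, known as GADD34, is the stress-induced phosphatase subunit, and PPP1R15B, known as CReP, is the constitutive one. RNA levels do not measure kinase activity or eIF2α phosphorylation.

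The totals of the normalized counts ran from 28323706 to 29673925 in the MB1-47 libraries and from 30788198 to 32667526 in the DMSO libraries, and the sequencing depth is unknown. Of the 11 T-ALL markers checked, 10 were listed in the table, CD3E at 9647, 11120 and 10018 normalized counts with MB1-47 and at 11669, 10858 and 11965 with DMSO, while CD5 and CD2 were at most 25.9 and 75.1 in any library. The 10 summed to between 54584 and 61789 with MB1-47 and between 89174 and 90532 with DMSO. CD7, CD1A, CD3D, CD3G, NOTCH1 and RAG1 fell, with log2 changes of -2.02, -1.86, -1.24, -0.96, -0.89 and -0.41, while CD3E and TLX3 did not pass. The 2 myeloid markers listed summed to between 3.22 and 11.2 with MB1-47 and between 0 and 22.9 with DMSO. The 4 B-lineage markers listed summed to between 6610 and 7227 with MB1-47 and between 16118 and 17280 with DMSO, nearly all of it CD79A, which fell. The part of these marker changes in the results was not tested. In bulk RNA, fewer cells of a kind and less RNA per cell cannot be told apart.

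With MB1-47, transcripts of PERK and of both phosphatase subunits rose, those of PKR and GCN1 fell, and those of HRI and GCN2 did not pass the test. PPP1R15A rose 3.22-fold, EIF2AK3 2.76-fold and PPP1R15B 1.46-fold, while GCN1 was 1.54-fold lower and EIF2AK2 1.29-fold lower. Thus 5 of 7 genes passed, 3 higher and 2 lower, beside 38.1% of the 13465 genes tested, 18.3% higher and 19.8% lower. The groups did not overlap in those 5 genes, and did not overlap in 49.3% of all genes tested. The median change of the 7 genes was 0.27 on the log2 scale and that of all genes tested was 0.02. When library totals were made equal, the median over the genes tested became 0.15 and the calls over all genes split into 3335 higher and 2063 lower, in place of 2458 and 2667; the same 5 genes of the set passed in the same directions. Changes are log2 differences, MB1-47 minus DMSO, of log2(normalized counts + 1), which understate the change of low genes, and adjusted p-values come from limma over all genes tested with Benjamini-Hochberg adjustment and a threshold of 0.05.

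**Figure D1:**
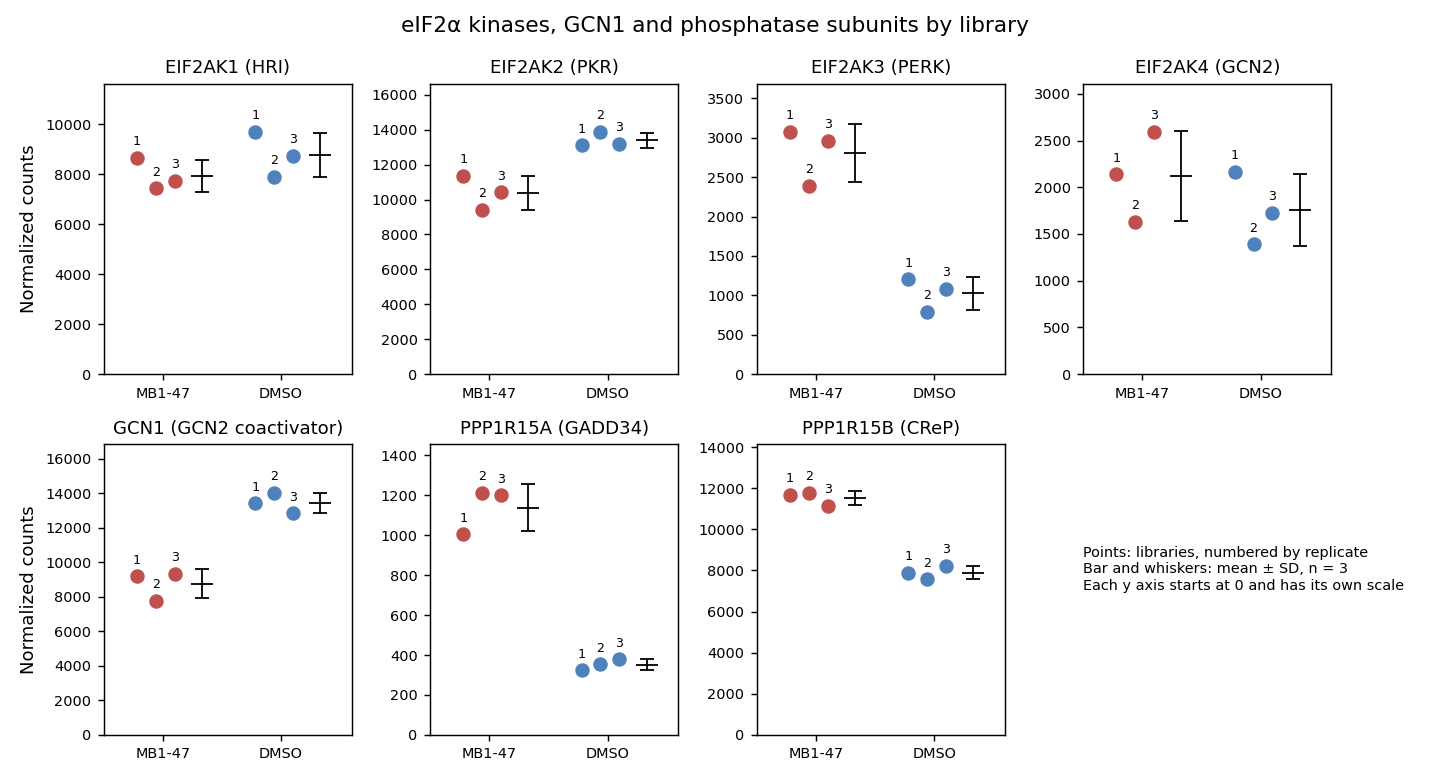
Normalized counts (y axis, from 0, own scale in each panel) of the 7 genes in the 3 MB1-47 and 3 DMSO libraries; points are libraries numbered by replicate, and the bar with whiskers is the mean ± SD. The MB1-47 libraries lie above all DMSO libraries for EIF2AK3, PPP1R15A and PPP1R15B and below them for EIF2AK2 and GCN1.

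EIF2AK3 encodes PERK, a transmembrane kinase of the endoplasmic reticulum, and lies on chromosome 2 from 88556741 to 88627576 (GENCODE 29, GRCh38). It had 3074, 2389 and 2962 normalized counts in MB1-47 replicates 1, 2 and 3, against 1204, 794 and 1086 in DMSO replicates 1, 2 and 3. The lowest MB1-47 library was thus far above the highest DMSO library, and replicate 2 was the lowest of its group in both. The mean was 2808 ± 367 with MB1-47 and 1028 ± 211 with DMSO (SD, n = 3 each). The log2 change was 1.46 ± 0.16 (SE), with a 95% interval from 1.11 to 1.82 and a limma adjusted p of 4.26e-05. Of all genes tested, 3.82% rose at least as far. The transcript used for its length shares 781 exonic bases with the opposite-strand gene AC104134.1 and 38 with AC062029.1, neither of which was analysed here.

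EIF2AK2 encodes PKR, which binds double-stranded RNA and is induced by interferon, and lies on chromosome 2 from 37099210 to 37157065. The transcript used for its length shares 167 exonic bases with an opposite-strand pseudogene and 35 with an opposite-strand coding gene. EIF2AK2 had 11377, 9425 and 10410 normalized counts in the MB1-47 libraries, against 13100, 13870 and 13187 in the DMSO libraries. Every MB1-47 library was below every DMSO library, with means of 10404 ± 976 with MB1-47 and 13386 ± 421 with DMSO. The log2 change was -0.37 ± 0.09, with an interval from -0.56 to -0.18 and a limma adjusted p of 0.00571. Its size depended on the scaling more than that of the other genes. It was -0.24 with equal library totals (adjusted p = 0.0348), -0.21 with quantile normalization (adjusted p = 0.0608, no longer past the threshold) and -0.64 after trends on GC content and length had been taken out of every library (adjusted p = 7.56e-05; added after the data were seen).

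EIF2AK1 encodes HRI and lies on chromosome 7 from 6022244 to 6059230. It had 8663, 7441 and 7738 normalized counts in the MB1-47 libraries and 9694, 7907 and 8729 in the DMSO libraries. The groups overlapped, since MB1-47 replicate 1 was above DMSO replicate 2. The change of -0.14 ± 0.10 did not pass (limma adjusted p = 0.281; 95% interval -0.36 to 0.07), which bounds it between 0.78-fold and 1.05-fold of the DMSO level. The transcript shares 532 exonic bases with AIMP2, a scaffold of the multisynthetase complex on the opposite strand. Libraries were strand-specific, but whether the quantification used strand is not given in the sources used here, so reads of these bases cannot be told apart. AIMP2 itself stood at 657 ± 11.8 with MB1-47 and 809 ± 153 with DMSO and did not pass (adjusted p = 0.176).

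EIF2AK4 encodes GCN2 and lies on chromosome 15 from 39934146 to 40035591. It had 2140, 1627 and 2591 normalized counts in the MB1-47 libraries and 2162, 1390 and 1725 in the DMSO libraries. These ranges overlapped over most of their length, and the libraries of each group were widely spread, with SDs of 482 with MB1-47 and 387 with DMSO. The change of 0.27 ± 0.19 did not pass (limma adjusted p = 0.295; 95% interval -0.15 to 0.68). The change of PPP1R15B, 0.55, lies within that interval.

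GCN1, the ribosome-bound coactivator that GCN2 needs in yeast and in mammalian cells, lies on chromosome 12 from 120127203 to 120194710. It had 9192, 7784 and 9315 normalized counts in the MB1-47 libraries, against 13419, 14025 and 12836 in the DMSO libraries. All MB1-47 libraries lay well below the lowest DMSO library, with means of 8764 ± 851 with MB1-47 and 13427 ± 595 with DMSO. The log2 change was -0.62 ± 0.09, with an interval from -0.82 to -0.42 and a limma adjusted p of 0.000261. The ratio of EIF2AK4 to GCN1 normalized counts, which compares libraries and not the amounts of the 2 genes, was 0.233, 0.209 and 0.278 with MB1-47, against 0.161, 0.0991 and 0.134 with DMSO.

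PPP1R15A, the stress-induced phosphatase subunit GADD34, lies on chromosome 19 from 48872392 to 48876057. It had 1004, 1213 and 1200 normalized counts in the MB1-47 libraries, against 323, 354 and 379 in the DMSO libraries. The 2 groups were far apart compared with their spread, with means of 1139 ± 117 with MB1-47 and 352 ± 28.0 with DMSO. The log2 change was 1.69 ± 0.15, with an interval from 1.36 to 2.01 and a limma adjusted p of 8.41e-06, and 2.69% of all genes tested rose at least as far.

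PPP1R15B, the constitutive subunit CReP, lies on chromosome 1 from 204403387 to 204411791. It had 11665, 11778 and 11146 normalized counts in the MB1-47 libraries, against 7883, 7568 and 8230 in the DMSO libraries. The libraries of each group were close together, with SDs of 337 with MB1-47 and 331 with DMSO, and the groups did not overlap. The log2 change was 0.55 ± 0.07, with an interval from 0.38 to 0.71 and a limma adjusted p of 0.00019. The ratio of PPP1R15A to PPP1R15B normalized counts was 0.0861, 0.103 and 0.108 with MB1-47, against 0.041, 0.0467 and 0.0461 with DMSO.

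**Figure D2:**
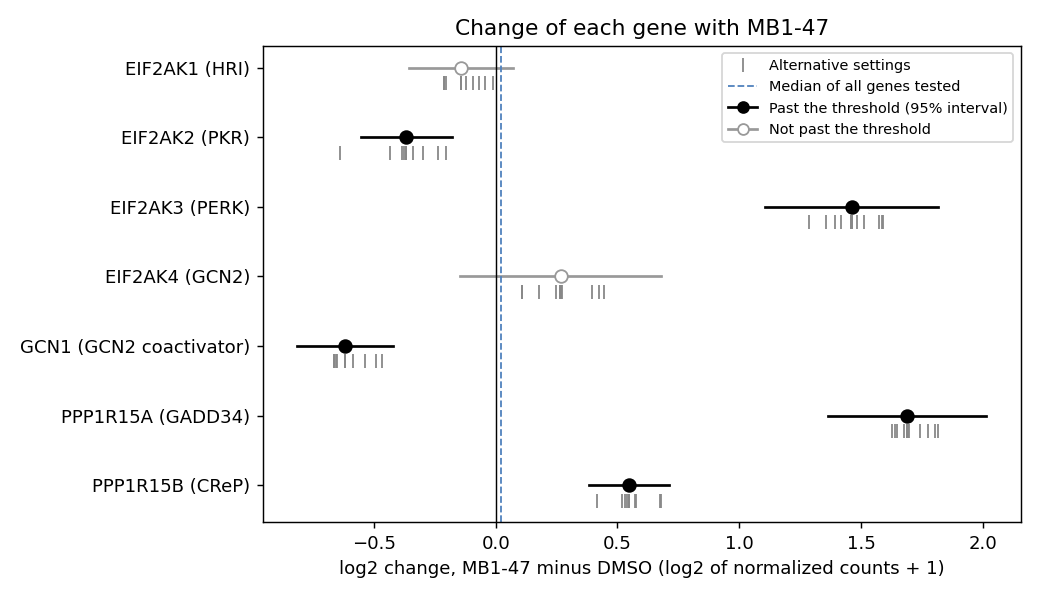
Log2 change (x axis, MB1-47 minus DMSO, of normalized counts + 1) of the 7 genes with its 95% interval; filled points passed the threshold, open points did not, grey ticks are 16 alternative settings and the dashed line is the median of all genes tested. The ticks of EIF2AK3, PPP1R15A, PPP1R15B, GCN1 and EIF2AK2 stay on the side of 0 where the point lies, and those of EIF2AK2 spread from -0.64 to -0.21.

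The 250 bases before the RefSeq transcription start of both phosphatase subunits, which rose, are printed to show motifs bound by stress-response factors. The sequences are from RefSeq (GRCh38.p14), 5′ to 3′ on the gene's strand, and 6 of the 7 genes have an entry in the table. Capitals mark matches, on either strand, to TGACGT (the core of the cAMP response element, bound by ATF and CREB factors; the full element is TGACGTCA), to TGATGNAA (the composite element bound by ATF4 with C/EBP factors) and to TTGCNNAA (a C/EBP element).
PPP1R15A, chr19:48872171-48872420, plus strand: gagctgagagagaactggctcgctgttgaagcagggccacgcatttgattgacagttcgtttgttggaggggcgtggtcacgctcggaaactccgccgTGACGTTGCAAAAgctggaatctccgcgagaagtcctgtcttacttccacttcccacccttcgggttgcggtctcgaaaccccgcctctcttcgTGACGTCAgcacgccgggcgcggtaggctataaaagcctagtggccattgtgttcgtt
PPP1R15B, chr1:204411818-204412067, minus strand: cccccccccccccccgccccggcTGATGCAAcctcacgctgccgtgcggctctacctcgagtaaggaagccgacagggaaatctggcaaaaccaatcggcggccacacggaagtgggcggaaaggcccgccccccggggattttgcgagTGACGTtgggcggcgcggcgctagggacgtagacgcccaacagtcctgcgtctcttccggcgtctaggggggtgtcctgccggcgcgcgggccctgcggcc

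In this window PPP1R15A held TGACGTCA starting 58 bases before the start, and TGACGT at 152 bases before it, whose last base is the first of the C/EBP match TTGCAAAA at 147 bases. PPP1R15B held TGATGCAA at 227 bases and TGACGT at 101 bases before the start. Of these motifs EIF2AK3 held the C/EBP match TTGCTCAA, 25 bases before the RefSeq start. GENCODE 29 starts this gene farther upstream, so that 112 bases of the window, the match included, lie within the gene as placed above; the same holds for 29 bases of the PPP1R15A window and 85 of the EIF2AK2 window, none with a match. Of 35116 promoter windows of the same length, 7.1% held TGACGT, 1.65% TGACGTCA, 3.14% TGATGNAA and 9.05% TTGCNNAA. None of EIF2AK2, EIF2AK4 and GCN1 matched any of these, and EIF2AK2 held CACGTG, the E-box bound by MYC with MAX, 181 bases before the start, a motif found in 6.34% of windows. The endoplasmic reticulum stress element, CCAAT and CCACG with 9 bases between them, matched in 0.074% of windows and in none of the 6. A core of the interferon response element, GAAA and GAAA with 2 bases between them, matched in 3.02% of windows and likewise in none of the 6. The motifs were chosen with the sequences in view, and a match is a description of letters, not evidence of binding.

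Levels of different genes were compared per kilobase of the GENCODE 29 principal transcript. On that scale the DMSO cells held mostly HRI and PKR transcripts, and PERK was the least abundant kinase in each DMSO library. EIF2AK3 averaged 604 ± 79.0 normalized counts per kilobase with MB1-47 and 221 ± 45.3 with DMSO, and EIF2AK4 385 ± 87.7 with MB1-47 and 320 ± 70.4 with DMSO. With MB1-47 the lowest library of EIF2AK3, at 514, was above the highest of EIF2AK4, at 471, whereas with DMSO the 2 genes overlapped, at 171 to 259 for EIF2AK3 and 253 to 393 for EIF2AK4. Within each library EIF2AK3 was above EIF2AK4 in all 3 MB1-47 libraries and below it in all 3 DMSO libraries, by either length. It made up 16.1%, 15.1% and 16.4% of the summed kinase level with MB1-47, against 6.28%, 4.78% and 6.13% with DMSO. The share of EIF2AK2 was 27.2% ± 0.43 with MB1-47 and 34.9% ± 3.54 with DMSO, and that of EIF2AK1 was 46.8% ± 2.07 with MB1-47 and 51.1% ± 1.54 with DMSO.

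**Figure D3:**
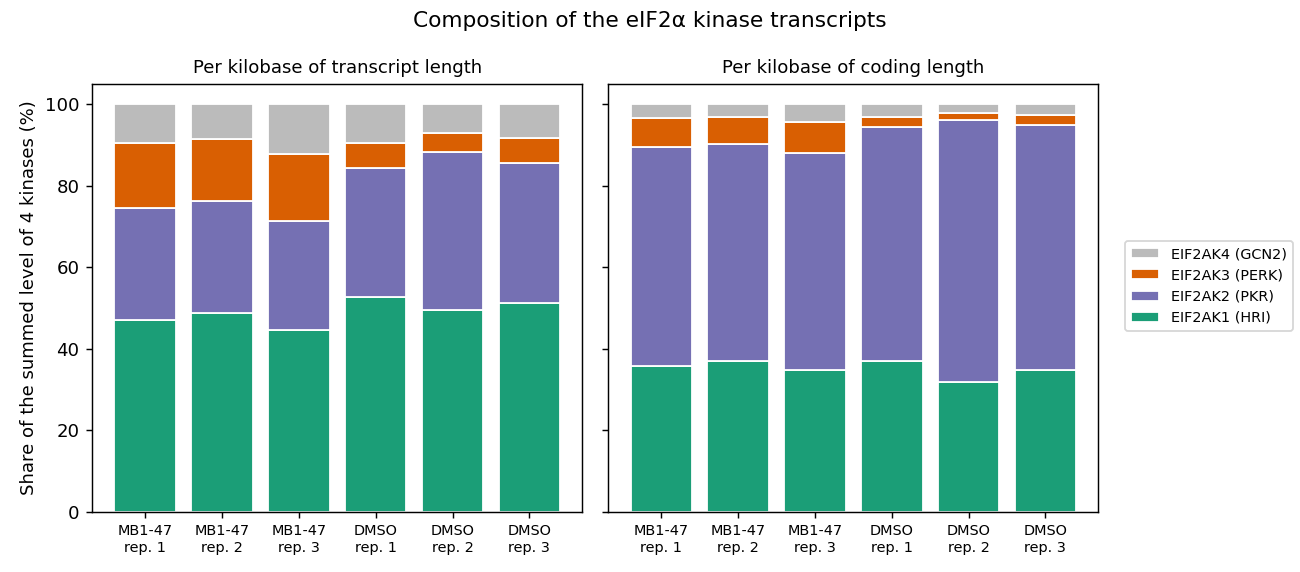
Share of each kinase in the summed level of the 4 kinases (y axis, %) in each library, with normalized counts divided by transcript length (left) or coding length (right). The EIF2AK3 band is between 15.1% and 16.4% in the MB1-47 libraries and between 4.78% and 6.28% in the DMSO libraries on the left, while the order of EIF2AK1 and EIF2AK2 differs between the panels.

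The order of EIF2AK1 and EIF2AK2 depends on the length used, because the annotated PKR transcript has 10042 bases of which 1653 are coding, and that of HRI has 4469 of which 1890 are coding. Per kilobase of coding length, EIF2AK2 came first with 53.5% ± 0.19 of the kinase level with MB1-47 and 60.5% ± 3.45 with DMSO, and EIF2AK3 held 7.11% ± 0.41 with MB1-47 and 2.28% ± 0.42 with DMSO. Among the phosphatase subunits PPP1R15B was the more abundant on either length. Per kilobase of transcript it had 2206 ± 64.5 with MB1-47 and 1510 ± 63.3 with DMSO, while PPP1R15A had 479 ± 49.3 with MB1-47 and 148 ± 11.8 with DMSO. PPP1R15A made up 17.8% ± 1.71 of the pair with MB1-47 and 8.93% ± 0.57 with DMSO, or 9.47% ± 0.99 with MB1-47 and 4.51% ± 0.30 with DMSO per kilobase of coding length.

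Over the 7 genes, the order per kilobase of transcript with MB1-47 was PPP1R15B, EIF2AK1, EIF2AK2, GCN1, EIF2AK3, PPP1R15A and EIF2AK4, of which EIF2AK2 and GCN1, and PPP1R15A and EIF2AK4, overlapped between libraries. With DMSO it was EIF2AK1, GCN1, PPP1R15B, EIF2AK2, EIF2AK4, EIF2AK3 and PPP1R15A, of which GCN1 and PPP1R15B, and EIF2AK4 and EIF2AK3, overlapped. In normalized counts without length, averaged over all libraries, the 7 genes lay between percentile 48.9 of the genes tested, for PPP1R15A, and percentile 97.1, for EIF2AK2. Replicate 2 was the lowest library of its group in both groups for EIF2AK1, EIF2AK3 and EIF2AK4, where it lay 0.09, 0.22 and 0.36 below the MB1-47 mean and 0.15, 0.35 and 0.32 below the DMSO mean on the log2 scale. For EIF2AK2 and GCN1 it was the lowest with MB1-47 only, and for PPP1R15B with DMSO only.

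The transcript of the substrate eIF2α was lower with MB1-47, as were those of 3 of the 5 eIF2B subunits. Of 12 genes for eIF2, eIF2B and their assembly or accessory factors, 8 fell and none rose (66.7% past the threshold, beside 38.1% of all genes tested), and the median log2 change was -0.46. This list and those that follow were chosen with earlier results of these data known, so such shares only describe them. EIF2S1, which encodes eIF2α itself, had 3284, 3350 and 3165 normalized counts in the MB1-47 libraries, against 6527, 5793 and 6009 in the DMSO libraries. It fell 1.87-fold (-0.90 ± 0.09, limma adjusted p = 1.47e-05), with no overlap between the groups. The β and γ subunits EIF2S2 and EIF2S3 changed by -0.11 and -0.15 and did not pass. BZW2, an eIF5-mimic protein, changed by -1.23 ± 0.11, CDC123, an assembly factor of eIF2, by -1.02 ± 0.09, and EIF2B3, a subunit of eIF2B, by -0.86 ± 0.14. EIF2B1 and EIF2B5 also fell, the call of EIF2B5 lost with equal library totals (adjusted p = 0.0585). EIF2B2 and EIF2B4 changed by -0.28 and -0.29 and did not pass. EIF5, also among the 8, changed by -0.31 and passed in 9 of 16 alternative settings, with a limma adjusted p of up to 0.249. With equal library totals 6 of the 12 were lower and none higher.

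Of the phosphatase side, the catalytic subunits PPP1CA and PPP1CC fell while PPP1CB did not pass. PPP1CA had 8600, 9554 and 9015 normalized counts with MB1-47, against 14372, 12755 and 15876 with DMSO (-0.66 ± 0.09, limma adjusted p = 0.000229). PPP1CC changed by -0.35 ± 0.09, a call lost with quantile normalization (limma adjusted p = 0.205) and without an intensity trend (0.0556). PPP1CB changed by 0.03 ± 0.09 (adjusted p = 0.848). PPP1CB depended on the scaling: it passed as higher with quantile normalization (0.25) and as lower with the GC and length trend removed (-0.24). The adaptor NCK2 rose by 0.48 ± 0.15 (adjusted p = 0.0293), a call lost without MB1-47 replicate 1 or 2 or DMSO replicate 2 or 3, where the highest adjusted p over 16 settings was 0.106; NCK1, its relative, did not pass. In all, 1 of 5 was higher and 2 lower (60% past the threshold, beside 38.1% of all genes tested), with a median of 0.03. The split was 2 higher and 1 lower with quantile normalization, and 1 higher and 3 lower with the GC and length trend removed.

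Around HRI, the list held the mitochondrial relay, inner membrane proteases and prohibitins, and chaperones. OMA1, the inner membrane protease that cleaves DELE1, rose to 937 ± 226 normalized counts with MB1-47, against 550 ± 103 with DMSO (0.76 ± 0.19, limma adjusted p = 0.00994; 0.0511 without an intensity trend). Its libraries were 1197, 820 and 794 with MB1-47 and 669, 480 and 502 with DMSO, and the groups did not overlap. DELE1, the messenger that binds HRI, stood at 2794 ± 289 with MB1-47 and 2468 ± 412 with DMSO and did not pass (adjusted p = 0.299). Of the 9 genes, 1 was higher and 6 lower (77.8% past the threshold, beside 38.1% of all genes tested), with a median of -0.66. DNAJB1, among the 6, changed by -0.34 and passed in 9 of 16 alternative settings, with a limma adjusted p of up to 0.145. The prohibitin PHB changed by -1.79 ± 0.10, and the chaperones HSP90AB1 and HSPA8, whose proteins bind HRI, by -1.36 ± 0.07 and -0.77 ± 0.09. The direction of HSPA8 turned with quantile normalization, where it passed as higher (0.17, adjusted p = 0.0258). The list had 2 higher and 5 lower with equal library totals, and 3 higher and 5 lower with quantile normalization.

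Genes of the list around PERK, mostly endoplasmic reticulum chaperones, rose in 6 of 9 cases and fell in none. These 6 are 66.7% of the list, beside 38.1% of all genes tested past the threshold, and the list median was 0.56. CRELD2, among the 6, changed by 0.56 and passed in 11 of 16 alternative settings, with a limma adjusted p of up to 0.129. HSPA5, the chaperone BiP that holds PERK inactive, had 24435, 26100 and 24247 normalized counts with MB1-47, against 12541, 11729 and 13729 with DMSO, a 1.97-fold rise (0.98 ± 0.08, limma adjusted p = 5.51e-06). DNAJC3, a co-chaperone also known as an inhibitor of PKR and PERK, rose by 1.16 ± 0.09, FICD, which modifies BiP, by 1.19 ± 0.18, and DNAJB9, a BiP co-chaperone, by 2.68 ± 0.18. Among 12 genes around PKR, 2 were higher, DNAJC3 and the RNA sensor DDX58 (0.56 ± 0.13), and 2 were lower, among them NPM1, which encodes the nucleolar protein nucleophosmin (-0.85 ± 0.08). These 4 are 33.3% of the list, near the 38.1% of all genes tested. The median was 0.00, and with equal library totals 4 were higher and 2 lower. PRKRA and TARBP2, an activator and an inhibitor of PKR, changed by 0.03 and -0.24 and did not pass.

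Of 16 genes linked to GCN2 through the ribosome, 5 fell and none rose, and the median was -0.18. That is 31.2% past the threshold, no more than the 38.1% of all genes tested. ABCE1, a ribosome recycling factor, changed by -1.23 ± 0.09, ABCF2 by -0.75 ± 0.10 and ABCF1 by -0.67 ± 0.13. The last 2, like ABCF3, are relatives of the yeast GCN1 partner GCN20. ABCF3 changed by -0.12 and did not pass (limma adjusted p = 0.537), and it passed in 0 of 16 alternative settings. The P-stalk genes RPLP0, RPLP1 and RPLP2, whose proteins activate GCN2, changed by -0.17, -0.04 and -0.23 and did not pass. With equal library totals 3 of the 16 were lower and 1 higher.

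In a list of stress transcription factors and early target genes, 14 of 19 were higher and none was lower, with a median of 0.76. That is 73.7% past the threshold, beside 38.1% of all genes tested, in a list chosen with earlier results of these data known. The 14 include ATF6, XBP1 and ERN1, which belong to the other arms of the unfolded protein response and not downstream of eIF2α. The XBP1 call (0.305) was kept in 12 of 16 alternative settings, with a limma adjusted p of up to 0.0825, and those of ATF6 and ERN1 in all 16. ATF4 stood at 23302 ± 665 with MB1-47 and 19685 ± 922 with DMSO, a 1.18-fold rise (limma adjusted p = 0.02) that missed the threshold without MB1-47 replicate 3 or DMSO replicate 1 or 2 and without an intensity trend, with an adjusted p of up to 0.0829. DDIT3, the transcription factor CHOP, whose product is known to raise PPP1R15A transcription, had 1445, 1751 and 1583 normalized counts with MB1-47, against 560, 458 and 599 with DMSO. This was a 2.96-fold rise, beside the 3.22-fold rise of PPP1R15A, and a link between the 2 rises was not tested. CEBPB changed by 1.41 ± 0.16, TRIB3 by 2.61 ± 0.08 and ERN1, the sensor IRE1, by 2.84 ± 0.15. ATF3 and CHAC1, 2 other known targets, changed by -0.40 and -0.35 and did not pass.

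**Figure D4:**
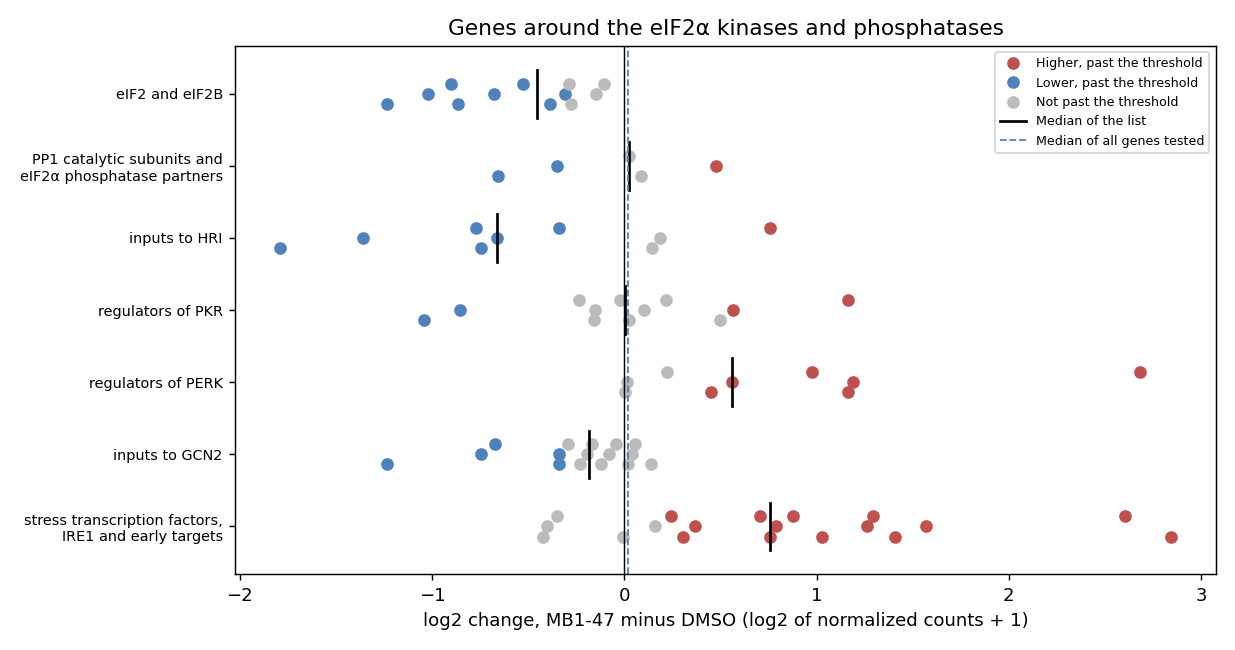
Log2 change (x axis, MB1-47 minus DMSO, of normalized counts + 1) of each gene in the 7 pathway lists; points are genes, red higher and blue lower past the threshold, grey not past it, black bars are list medians and the dashed line is the median of all genes tested. The medians run from -0.66 for the genes around HRI to 0.76 for the stress transcription factors, IRE1 (ERN1) and early targets.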

How the data were processed

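RNA-seq was analysed in 6 libraries. Per the submitters' processing notes, the authors used kallisto 0.44.0 and DESeq with genome build GRCh38.p13; the sources used here do not give the annotation, strand setting, gene summing or filters. The deposited values are normalized counts per gene symbol, treated as a signal that is never negative. Low values were divided by a common step, chosen in each library to give the highest share near whole numbers. Of the quotients, 63.6% to 69.8% lay within 0.1 of a whole number. This is too few to recover reads, so depth is unknown and counting error cannot be given. No pair of libraries shared a value above 0 in any gene.

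Genes with a mean of at least 10 were tested (13465, all 7 analysed genes of the set among them) as log2(value + 1) with limma 3.58.1 in R 4.3.3, group only, with an intensity trend; the steps were tested on simulated data. Quantities with no test are mean ± SD. The genes and lists were chosen with earlier results of these data known. Named beside the set were 9 fixed genes, up to 3 further genes per list with the largest change past the threshold and a mean of at least 50, and for each gene past the threshold the 3 with the most similar profile; 2 genes that this rule names are not reported here. EIF2S2, EIF2S3, EIF2B1, EIF2B2, EIF2B4, EIF2B5, EIF5, NCK1, DNAJB1, CRELD2, PRKRA, TARBP2, RPLP0, RPLP1, RPLP2, ABCF3, DDX58, ATF3, ATF6, XBP1, CHAC1, AIMP2 and the markers fall outside this rule and were chosen after their values were seen. Lists were counted, not tested; NARS1 and WARS1 were matched by older symbols. Gene lengths come from GENCODE 29, one principal transcript per gene. Alternatives were another pseudocount, filter, scaling, no trend, a replicate block and each library left out; removing the GC and length trend, and using coding length, were chosen after seeing the data. Python 3.11.15 and matplotlib 3.10.9 made the figures.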

Additional observations from a re-analysis of the deposited data

How the results depend on the processing

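EIF2AK3, PPP1R15A, PPP1R15B and GCN1 kept their direction and passed the threshold in all 16 alternative settings run, with changes from 1.29 to 1.59, from 1.63 to 1.82, from 0.42 to 0.68 and from -0.67 to -0.47. EIF2AK2 passed in 15 of 16 and changed by -0.21 under quantile normalization, where it did not; the cause was not tested. EIF2AK1 and EIF2AK4 passed in none, with the lowest adjusted p at 0.123 and 0.0765. The count of genes past the threshold ran from 4146 to 4742 when 1 library was left out, and was 4261 without an intensity trend. The EIF2AK3 share of the kinases with MB1-47 was 7.11% by coding length in place of 15.9%, by construction of the length used. No list's total of genes past the threshold moved by more than 1.5 times in the settings run. With the replicate number as a replicate block 5246 genes passed and no call in the set changed. Deviations of same-numbered libraries correlated at 0.022, 0.057 and 0.007, and not every library correlated best with its own number. With 3 libraries a group, such low correlations cannot show whether the numbers pair the libraries. Among the other genes named, HSPA8 reversed with quantile normalization (0.17) and PPP1CB with the GC and length trend removed (-0.24), both past the threshold. Genes not past it on either side changed sign as follows. With quantile normalization they were EIF2S2 (0.013), EIF2S3 (0.076), RPLP0 (0.163), RPLP1 (0.004) and RPLP2 (0.003). With equal library totals they were EIF2S2 (0.021), RPLP1 (0.087) and ABCF3 (0.009). With the GC and length trend removed they were RPLP0 (0.019), RPLP1 (0.079) and RPLP2 (0.018). With 1 library left out, the sign changed in at least 1 case for PPP1CB (lowest -0.033, highest 0.103), PRKRA (lowest -0.021, highest 0.106), NCK1 (lowest -0.022, highest 0.16) and RPLP1 (lowest -0.095, highest 0.012). Count-based tests were not run because whole reads were not recovered. With 3 libraries a group and unknown depth, the intervals of EIF2AK1 and EIF2AK4 do not show that these genes were the same in both groups.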

Other observations

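Over the 6 libraries, the genes whose log2 values followed those of the set most closely of the 10240 genes compared (mean 100 or more) were, for EIF2AK3, PTPRC (Pearson r = 0.9999), MEX3C (0.9993) and TSPYL1 (0.9992), and for PPP1R15A, ZFC3H1 (0.9987) and NOP53 (0.9984). For PPP1R15B they were BCL6 (0.9996), VEGFA (0.9994) and FAM160B2 (0.9991), for GCN1 NLGN4X (0.9977), RNF165 (0.9969) and BEND3 (0.9966), and for EIF2AK2 SYNJ2BP (0.9976), ZNF814 (0.9932) and TNFRSF13C (0.9904). These are descriptions over 6 points that fall into the 2 groups, so the difference between groups enters each r, and the highest of 10240 values is picked, so no p is given. The sizes of the changes differ within such pairs: BCL6 changed by 3.01 on the log2 scale, beside 0.55 for PPP1R15B, and TSPYL1 by 0.34, beside 1.46 for EIF2AK3.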
